A study of Mus musculus with 14 samples.

Results

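The cytosolic ribosomal protein genes were examined in immortalized murine embryonic fibroblasts (iMEFs) and in livers that had entered senescence through loss of TRF2, a telomere-binding protein encoded by *Terf2*. Members were chosen by symbol, as the Rpl and Rps genes with a number and at most 1 of the letters a, x, y or l after it, together with *Rplp0*, *Rplp1*, *Rplp2* and *Rpsa*. There were 83 members among 54532 genes, 51 of the large and 32 of the small subunit. The filter on low counts left 79 of the 83 in each tissue. The 4 others, *Rpl10l*, *Rpl39l*, *Rpl3l* and *Rpl32l*, were too low to test. *Rps4l*, *Rpl6l* and *Rpl32l* are annotated as pseudogenes by GENCODE and were kept as members because the rule takes them.

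RNA-seq libraries came from 3 control and 3 senescent iMEF cultures and from 4 control and 4 senescent livers. All iMEFs carried Trf2F/F;Rosa-CreER and were immortalized with SV40. Control iMEFs received vehicle and senescent iMEFs 4-hydroxytamoxifen (4HT), with collection at 7 days. The drug and active Cre cannot be told apart from the loss of *Trf2*, because vehicle cells had neither. Control livers were Rosa-mTmG and senescent livers Trf2F/F;Rosa-mTmG, and both groups received AAV8-Tbg-Cre, whose promoter drives Cre in hepatocytes. Livers were collected 6 to 7 weeks later, and the age of the mice is not given in the sources used here. Whole liver was sequenced, so cells other than hepatocytes kept *Trf2*. Fewer cells of a type and less RNA per cell cannot be told apart in such bulk samples. Libraries held 15364450 to 20177401 reads in genes. *Terf2* went from 38.3 ± 0.775 to 0.250 ± 0.0482 CPM in iMEFs (SD, n = 3 each) and from 12.6 ± 1.35 to 3.82 ± 1.12 CPM in livers (SD, n = 4 each). CPM is the count of a gene relative to all reads of its library, after TMM scaling, a factor that sets libraries to a common level. All 8 fibroblast markers and 0 of 8 hepatocyte markers reached 1 CPM in control iMEFs, and all 8 hepatocyte markers had reads in livers.

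Each ribosome holds 1 copy of nearly every ribosomal protein, built around rRNA in the nucleolus and completed in the cytoplasm. mRNAs of these proteins typically begin with a short run of pyrimidines, the 5′ terminal oligopyrimidine tract, through which growth signalling sets their translation as a group. Several free ribosomal proteins, among them those of *Rpl5*, *Rpl11*, *Rpl23*, *Rpl26*, *Rps7* and *Rps27*, are known to bind MDM2, the ubiquitin ligase that degrades p53. *Rps27l* encodes a close relative of *Rps27* and is known as a p53 target. The comparison asked how far the family, or single members of it, changed in senescence in each tissue.

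Ribosomal protein genes took a larger share of reads in iMEFs than in livers. In control iMEFs 4.25%, 4.23% and 4.05% of the reads in genes fell in members, and in senescent iMEFs 4.85%, 5.18% and 4.16%. Senescent replicates 1 and 2 lay above all controls, and senescent replicate 3 lay within the control range. The same library had 2.32% of its reads from the mitochondrial genome, against 0.599% to 0.853% in the other iMEF libraries, and the part of this in the result was not tested. With mitochondrial reads left out of the total its member share was 4.25%. In livers the share was 1.41% to 1.43% in the 4 controls and 1.39%, 1.49%, 1.43% and 1.54% in the senescent group. For each read of the small subunit the large subunit held 1.48, 1.46 and 1.401 reads in control iMEFs and 1.38, 1.37 and 1.399 in senescent iMEFs. Every senescent iMEF library was below every control, replicate 3 of each group by a narrow margin, and no test was run on this ratio. In livers it was 1.38 to 1.43 in control and 1.40 to 1.44 in senescent libraries, with overlap.

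**Figure D1:**
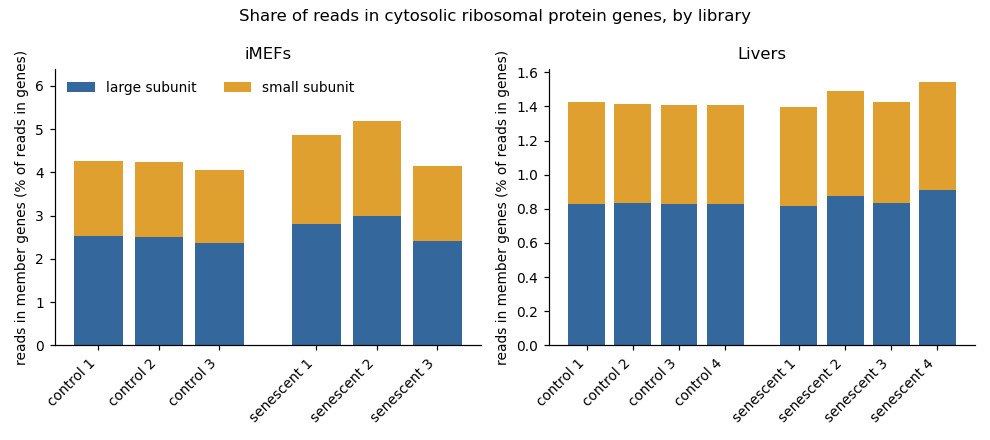
Share of the reads in genes that fell in ribosomal protein genes, in percent, for each library, with the large subunit in blue and the small subunit in yellow. Senescent iMEF replicates 1 and 2 reach 4.85% and 5.18%, while liver libraries lie between 1.39% and 1.54%. The axes of the panels differ.

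Levels between genes were compared per length, as reads per kilobase of the principal transcript scaled to the same total over all genes in each library (a TPM-like level). The median over the 79 tested members was 1217 in control iMEFs and 339.5 in control livers, and 76 of the 79 were higher in control iMEFs, with a median ratio of 3.24. *Rps2*, a core protein of the small subunit, and *Rplp0*, the base of the stalk that recruits elongation factors, ranked 1 and 2 of 79 on this scale in control iMEFs. In control livers *Rplp1*, another stalk protein, and *Rpl10*, which joins the large subunit late, ranked 1 and 2. *Rps27l* ranked 69 of 79 in control iMEFs and 58 in senescent iMEFs, and 28 in control livers and 10 in senescent livers. *Rps27* ranked 12 and 8 in control and senescent iMEFs and 18 and 27 in control and senescent livers.

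In senescent iMEFs most members did not pass the test, and a minority changed, in opposite directions. Of the 79 tested, 18 were higher (8 large, 10 small), 7 lower (5 large, 2 small) and 54 did not pass an adjusted p of 0.05 by edgeR's quasi-likelihood test. Over all 13561 genes tested 18.6% were higher and 21.2% lower (39.8% in either direction), so the members that were higher, 22.8%, were near the share of all genes. The members that were lower made up 8.86%. The median log2 fold change, senescent over control, was 0.16 for the members (0.15 large, 0.20 small), and 57 of the 79 values were positive. For 51 of 79 members the 95% confidence interval lay within 0.5 in either direction, and for 76 within 1. The groups separated completely upward in 28 members, against 24.2% of all genes, and downward in 6, against 26.4%.

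These counts depended on single libraries. Without senescent iMEF replicate 3, 46 members were higher and 7 lower, where 20.2% and 22.5% of all genes were. Without control replicate 1, control replicate 2 or senescent replicate 2, the members higher were 10, 7 and 10. Shares of all genes without these libraries were not taken, so a fall in calls over all genes cannot be told apart from one in the members. The median deviation of the members from the control mean, on the log2(CPM + 0.1) scale, was 0.16, 0.28 and 0.01 in senescent replicates 1, 2 and 3. Of the 79 members 61, 62 and 42 lay above the control mean in these 3 libraries. With an offset for transcript length 34 members were higher, against 19.9% of all genes.

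**Figure D2:**
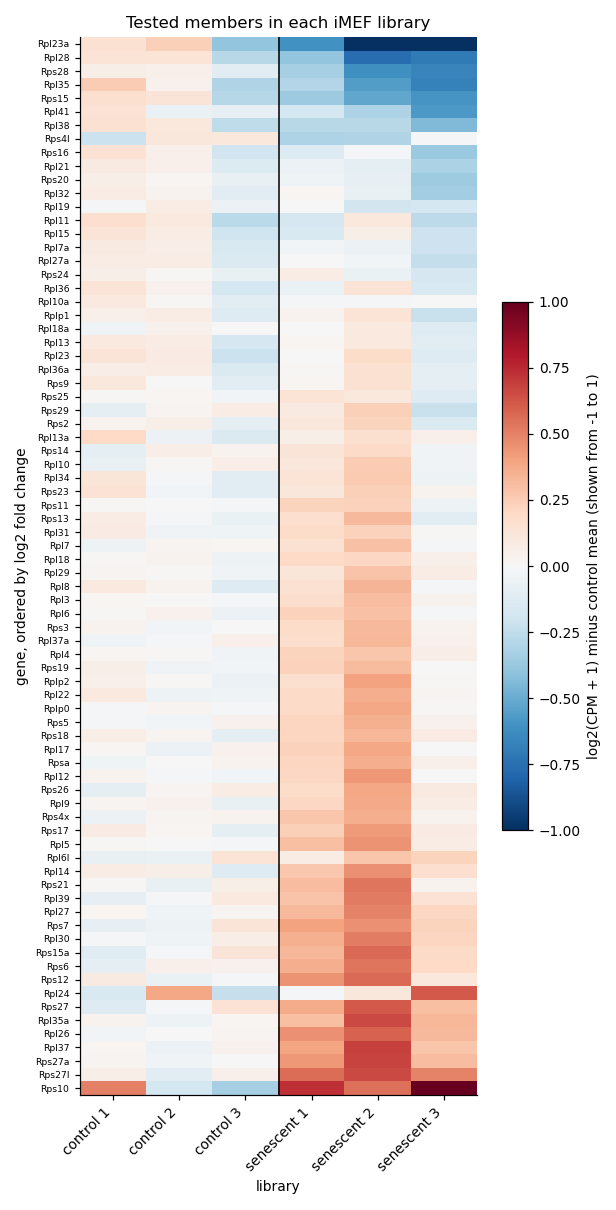
Deviation of tested members from the mean of the control iMEFs, in log2(CPM + 1), for the 6 iMEF libraries (columns). Rows are genes, 78 of them drawn, ordered by log2 fold change, and colors stop at -1 and 1. Senescent replicate 3 is paler than replicates 1 and 2 over most genes of the lower part. Its median over all tested members was 0.01 on the log2(CPM + 0.1) scale. The genes at the top are low in all 3 senescent libraries.

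The largest rise among the iMEF calls, after that of *Rps10*, was that of *Rps27l*, on chromosome 9 of GRCm38 from 66946086 to 66949516, plus strand. Its levels were 127, 113 and 127 CPM in the control libraries and 179.6, 193 and 173 CPM in the senescent libraries. All 3 senescent libraries were above all controls. The log2 fold change was 0.58 (standard error 0.08, 95% confidence interval 0.40 to 0.75, adjusted p = 1.38e-04 by edgeR's quasi-likelihood test). *Rps27l* passed in all 16 alternative fits in iMEFs.

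*Rps27a*, which encodes ubiquitin fused to a small-subunit protein, was at 375, 360.3 and 370.3 CPM in control and 498, 589 and 455 CPM in senescent iMEFs. The senescent libraries were all higher (log2 fold change 0.48, standard error 0.10, adjusted p = 0.00216 by edgeR). *Rpl37*, a large-subunit protein, rose from 250, 237 and 255 CPM to 325, 396 and 300.1 CPM (log2 fold change 0.46, adjusted p = 0.00333 by edgeR). Its 3 senescent libraries also lay above all its controls.

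Of the MDM2 binders named above, which are not a full list, *Rpl26*, *Rps7*, *Rps27* and *Rpl5* rose in iMEFs, and *Rpl23* and *Rpl11* did not pass. Over all genes tested in iMEFs 18.6% were higher and 21.2% lower. *Rpl26* was at 429.9, 440.0 and 447 CPM in control and 602, 660 and 549 CPM in senescent iMEFs, with no overlap (log2 fold change 0.46, standard error 0.09, adjusted p = 0.00151 by edgeR). *Rps27* was at 291, 315 and 353 CPM in control and 412, 488 and 393 CPM in senescent iMEFs (log2 fold change 0.43, adjusted p = 0.00563 by edgeR). *Rps7* had a log2 fold change of 0.36 (adjusted p = 0.0112 by edgeR, and 0.0669 and 0.0682 without control replicate 1 or 2). These genes kept their groups apart in iMEFs. *Rpl5* and *Rpl11*, whose proteins bind 5S rRNA together before it enters the large subunit, had log2 fold changes of 0.28 (adjusted p = 0.0422) and -0.11 (adjusted p = 0.50) by edgeR. The call for *Rpl5* was the least stable of those named, as it passed in 8 of 16 alternative fits and, on leaving out 1 library, only without senescent replicate 3 (adjusted p = 1.55e-04 to 0.183 by the tools used). *Rpl23* had a log2 fold change of 0.02, with a 95% confidence interval of -0.22 to 0.25.

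The stalk proteins, *Rpsa* and most X-linked members did not pass in iMEFs by edgeR. *Rplp0*, *Rplp1* and *Rplp2* had log2 fold changes of 0.20, -0.01 and 0.20, and that of *Rplp1* was above 0 with other scalings (0.04 with library size only). *Rpsa*, a small-subunit protein also known as a laminin receptor, had 0.22 (adjusted p = 0.123 by edgeR). Of the 4 X-linked members, *Rpl39* rose (log2 fold change 0.32, adjusted p = 0.0252 by edgeR, and 0.114, 0.0984 and 0.123 without control replicate 1, control replicate 2 or senescent replicate 2), and *Rps4x*, *Rpl10* and *Rpl36a* had 0.23, 0.11 and 0.02. *Rpl3*, a large-subunit protein near the peptidyl transferase center, had 0.18. DESeq2 called *Rpsa* (log2 fold change 0.22, adjusted p = 0.0481) and *Rps4x* (0.24, adjusted p = 0.0405) higher, and edgeR with an offset for transcript length called *Rplp2*, *Rps4x* and *Rpl3* higher (0.28, 0.32 and 0.26). Without senescent replicate 3 *Rplp0*, *Rplp2*, *Rpsa*, *Rps4x*, *Rpl10* and *Rpl3* passed as higher (log2 fold changes 0.31, 0.30, 0.30, 0.33, 0.19 and 0.25).

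A set of 7 members fell in senescent iMEFs, and 5 of these were farther than 3 scaled median absolute deviations from the median of their subunit. *Rpl23a*, a large-subunit protein at the exit of the peptide tunnel, was at 275, 293 and 188 CPM in control iMEFs and 162, 89.7 and 112 CPM in senescent iMEFs. Every senescent library was below every control library, although control replicate 3 was closer to the senescent libraries than controls 1 and 2 were. The log2 fold change was -1.05 (standard error 0.20, 95% confidence interval -1.48 to -0.63, adjusted p = 0.00107 by edgeR).

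*Rpl28*, on chromosome 7 of GRCm38 from 4792874 to 4795066, plus strand, was at 426, 426 and 320.3 CPM in control and 295, 229 and 238 CPM in senescent iMEFs. The groups did not overlap (log2 fold change -0.62, standard error 0.12, adjusted p = 0.00186 by edgeR). *Rps28*, a small-subunit protein, was at 251, 248 and 223 CPM in control and 190.3, 156 and 151 CPM in senescent iMEFs (log2 fold change -0.54, standard error 0.10, adjusted p = 9.26e-04 by edgeR). It too fell in all 3 senescent libraries.

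*Rpl35*, which sits near the tunnel exit, was at 282, 243 and 191 CPM in control and 193, 160 and 147 CPM in senescent iMEFs (log2 fold change -0.52, adjusted p = 0.00828 by edgeR). Its groups overlapped by 1 pair, control replicate 3 and senescent replicate 1. *Rps15*, a small-subunit protein, fell from 506, 495 and 373 CPM to 353, 317 and 301 CPM (log2 fold change -0.50, adjusted p = 0.00456 by edgeR), without overlap. *Rpl41* and *Rpl38*, 2 small proteins of the large subunit chosen for naming after their values were seen, had log2 fold changes of -0.35 and -0.34.

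The 7 members that fell also differed among the control iMEFs. Their median deviation from the control mean was 0.15 and 0.11 in controls 1 and 2 and -0.27 in control 3, against -0.34, -0.56 and -0.67 in senescent replicates 1, 2 and 3. The median length of their principal transcripts was 560 bases and the median GC content 56.3%, compared with 813 bases and 50.4% for the 18 that rose and 940 bases and 51.7% for the 54 others. Of tested genes other than the members with a GC content of at least 55%, 29.5% were lower and 12.8% higher in senescent iMEFs. Below that content 18.6% of such genes were lower and 20.5% higher. Across the 79 members Spearman's rho of the log2 fold change was -0.22 with GC content and -0.07 with length, as a description over genes of the same libraries. *Rpl23a*, *Rpl28*, *Rps28*, *Rpl35* and *Rps15* were called lower in all 16 alternative fits, which included offsets for length and for GC content, and *Rpl38* and *Rpl41* in 12 each.

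**Figure D3:**
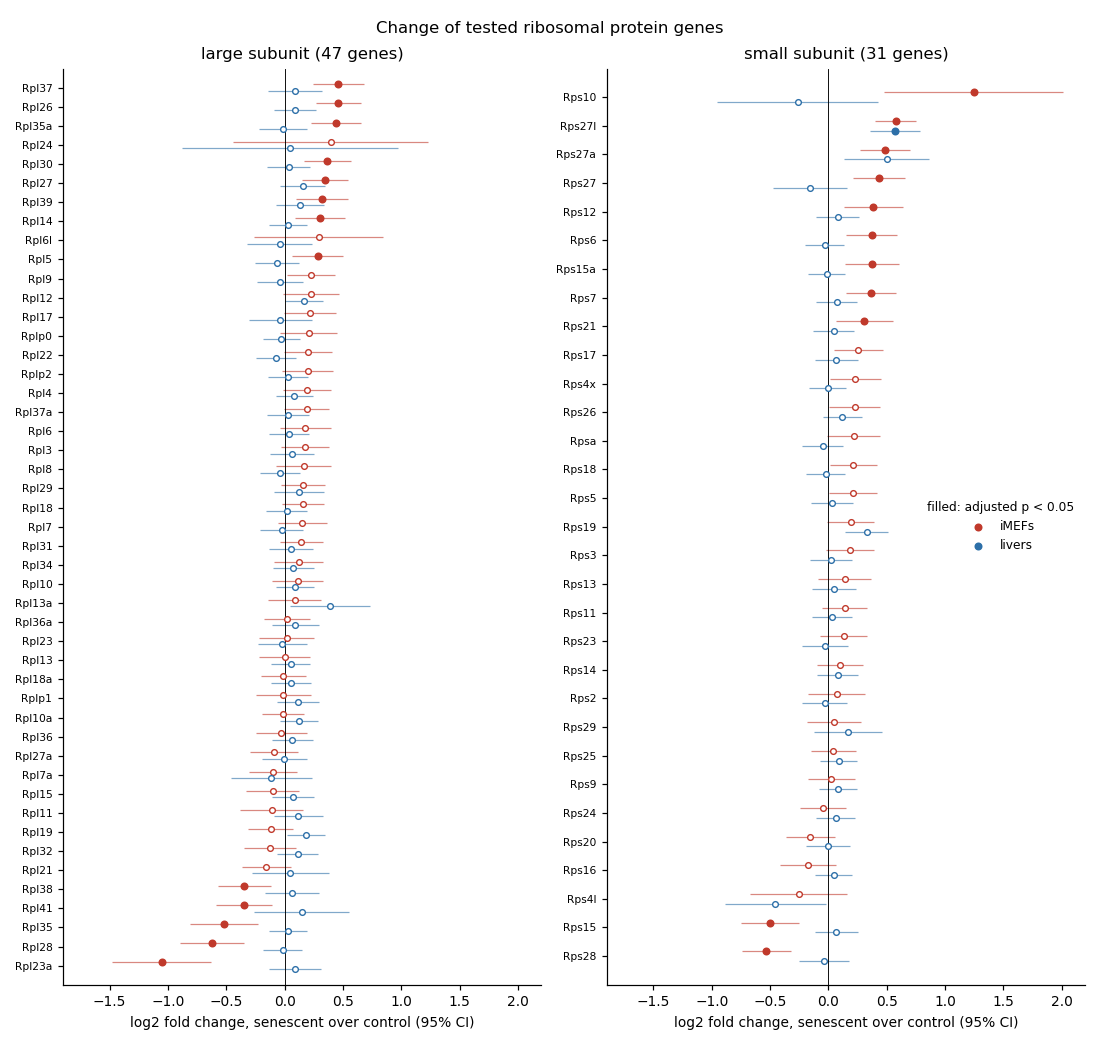
Log2 fold change of 78 of the 79 tested members, senescent over control, in iMEFs (red) and livers (blue), with 95% confidence intervals, large subunit left and small subunit right. Filled points passed an adjusted p of 0.05. In iMEFs 17 points are filled above 0 and 7 below, and in livers *Rps27l* is the 1 filled point.

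*Rps10* had the highest fold change in iMEFs, but from few reads. It had 55, 30 and 24 reads in control and 69, 52 and 119 reads in senescent iMEFs, or 3.04, 1.51 and 1.26 against 3.70, 3.17 and 6.83 CPM. The groups were apart by a narrow margin (log2 fold change 1.24, standard error 0.35, adjusted p = 0.0147 by edgeR), and the call did not pass without control replicate 2 or 3 (adjusted p = 0.0629 and 0.0690). Of its exon bases 20.6% are shared with *RPS10-NUDT3*, a read-through gene on the same strand that had 0 reads in every library. *Rpl13a* and *Rpl24*, with 2044 and 69 reads over the control iMEFs, share 29.4% and 47.0% of their exon bases with *Gm45713* and *Gm28037*, which also had 0 reads. Reads that fit both genes of a pair could not be assigned from these tables, so the levels of *Rps10*, *Rpl13a* and *Rpl24* are uncertain.

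Start sites are shown because the pyrimidine tract is the feature the family is known for. The members shown are those with a window among the 4 that rose most and the 4 that fell most in iMEFs, of those that passed, and *Rps27* as the usual copy of *Rps27l*. For each, 40 bases around a start given by RefSeq (GRCm38.p6) are written, 20 before and 20 from the start on. They are given 5′ to 3′ on the strand of the gene, with the longest run of C and T in capitals. Where RefSeq gives several starts, the window with the longest run is shown. Members with a fall in iMEFs come first, then those with a rise. *Rpl23a* and *Rps27a* had no window in the table used.
*Rpl28* (chr7:4792945-4792984, plus strand, fell): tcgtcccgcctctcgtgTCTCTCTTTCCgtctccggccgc
*Rpl35* (chr2:39005112-39005151, minus strand, fell): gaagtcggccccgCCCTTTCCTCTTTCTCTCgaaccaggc
*Rps28* (chr17:33824543-33824582, minus strand, fell): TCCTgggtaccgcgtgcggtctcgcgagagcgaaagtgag
*Rpl37* (chr15:5116593-5116632, plus strand, rose): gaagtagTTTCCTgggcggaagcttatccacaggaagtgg
*Rps10* (chr17:27635225-27635264, minus strand, rose): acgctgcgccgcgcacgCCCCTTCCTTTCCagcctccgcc
*Rps27* (chr3:90213629-90213668, minus strand, rose): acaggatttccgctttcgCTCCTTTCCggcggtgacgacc
*Rps27l* (chr9:66946066-66946105, plus strand, rose): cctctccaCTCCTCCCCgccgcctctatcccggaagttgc

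In the windows shown, which were picked for the longest run, runs that cross the start were present in members of both directions. The run was 11 bases in *Rpl28* and 18 in *Rpl35*, which fell, and 13 in *Rps10* and 9 in *Rps27*, which rose. In *Rps27l* the run of 9 bases ended before the start, and in *Rps28* and *Rpl37* the longest runs were 4 and 6 bases. Of the 83 members 61 had a window of 300 bases in the RefSeq table. A gene with several windows was counted for a motif if any of them held it, in members and all genes alike. A run of at least 8 C or T bases on the gene's strand within 50 bases of the start was found in 52 of the 61, or 85.2%, against 39.3% of 27025 genes. It was found in 15 of the 15 members with a window that were higher in iMEFs and in 5 of the 6 that were lower. The core of the ETS factor motif, CCGGAAG or its reverse complement CTTCCGG, was in 25 of the 61 (41.0%, against 9.93% of all genes), and its letters CTTCC can lie within a pyrimidine run. It was in 8 of the 15 and in 3 of the 6. TATAAA within 50 bases before the start was in 0 of the 61 and in 3.15% of all genes, and the YY1 core AAGATGGC or its reverse complement GCCATCTT in 5 of the 61 and in 3.19% of all genes. A match of letters describes the window and is not a shown binding site.

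In livers 1 member passed, again *Rps27l*. Of 79 tested, 1 was higher, 0 were lower and 78 did not pass by edgeR, where 0.308% of the 14270 genes tested were higher and 0.035% lower (0.343% in either direction). At an unadjusted p under 0.05 by edgeR 6 were higher and 1 lower, and DESeq2 and limma-voom each called 1 higher and 0 lower after adjustment. Shares of all genes at these settings were not taken, so these counts have none to be read against. The median log2 fold change was 0.05 (0.05 large, 0.04 small), and it was 0.0067 with an offset for transcript length and 0.027 and 0.073 without senescent liver replicate 2 or 1. The 95% confidence interval lay within 0.5 in either direction for 71 members and within 1 for all 79 tested, while 54 of the 79 values were positive. The groups separated upward in 7 members, among them *Rpl10a*, *Rpl12*, *Rpl19*, *Rps9*, *Rps19* and *Rps27l*, against 2.55% of all genes, and downward in 0, against 1.96%.

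*Rps27l* was at 134, 124, 113 and 130.3 CPM in control livers and 159, 204, 182 and 198 CPM in senescent livers. Every senescent liver was above every control liver. The log2 fold change was 0.57 (standard error 0.10, 95% confidence interval 0.35 to 0.78, adjusted p = 0.0302 by edgeR's quasi-likelihood test). The call was lost in 7 of the 8 fits that left out 1 library, with adjusted p = 0.0610 to 0.138, and held without senescent liver replicate 1. The log2 fold changes in these 8 fits were 0.52 to 0.64. It was also lost with the replicate number as a block (adjusted p = 0.0755).

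The reads of *Rps27l* were set against those of *Rps27* in each library, with no test of the ratio. For each read of *Rps27* there were 1.19, 1.34, 1.01 and 1.46 reads of *Rps27l* in control livers and 1.40, 3.05, 1.90 and 2.28 in senescent livers, so the groups overlapped through senescent replicate 1 and control replicate 4. In iMEFs the ratio was 0.435, 0.358 and 0.359 in control and 0.436, 0.396 and 0.439 in senescent libraries. *Rps27* itself was at 112, 92.3, 111 and 89.1 CPM in control and 113, 67.2, 96.1 and 86.7 CPM in senescent livers (log2 fold change -0.16, adjusted p = 0.850 by edgeR), and its groups overlapped. Its change in livers minus that in iMEFs was -0.59 (standard error 0.20, adjusted p = 0.0516 by edgeR) and did not pass, and for *Rps27l* this difference was -0.01 (95% confidence interval -0.30 to 0.28).

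**Figure D4:**
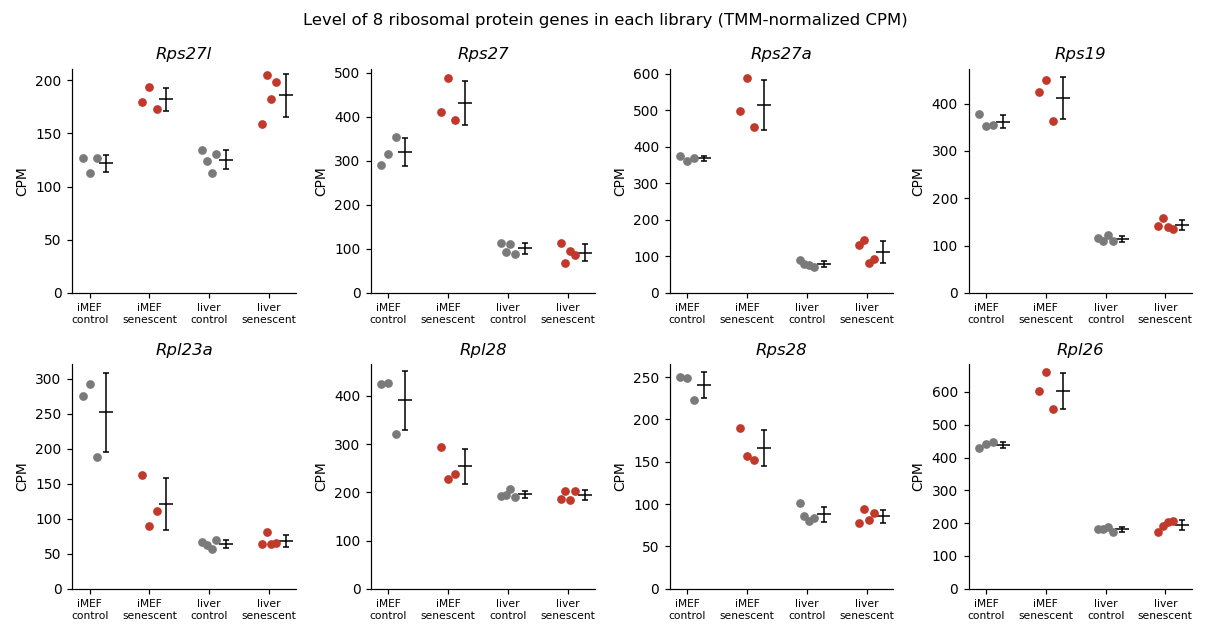
CPM of 8 members after TMM scaling, 1 point for each library (3 for an iMEF group, 4 for a liver group). Black marks to the right of the points give the group mean ± SD. *Rps27l* lies higher in all senescent libraries of both tissues (172.5 to 193 CPM in iMEFs, 159 to 204 CPM in livers), and *Rpl23a*, *Rpl28* and *Rps28* lie lower in all 3 senescent iMEF libraries and overlap in livers.

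Other outlying members in livers did not pass. *Rps19*, a small-subunit protein whose loss underlies an inherited anemia, was at 116, 109, 123 and 109.6 CPM in control and 141, 159, 139 and 135 CPM in senescent livers. The groups did not overlap, but the log2 fold change of 0.33 (standard error 0.08) had an adjusted p of 0.230 by edgeR. *Rps27a* was at 90.0, 79.3, 75.7 and 71.9 CPM in control and 130.3, 145, 81.0 and 91.5 CPM in senescent livers. Only senescent replicates 1 and 2 stood above the control range by a wide margin (log2 fold change 0.50, standard error 0.17, adjusted p = 0.484 by edgeR). *Rpl13a* had a log2 fold change of 0.39 (adjusted p = 0.597 by edgeR), from 696 reads in control and 845 in senescent livers. *Rps4l*, a pseudogene of the *Rps4x* sequence, had -0.46 (adjusted p = 0.639 by edgeR) and *Rps10* had -0.27. None of the members that fell in iMEFs passed in livers, where *Rpl23a*, *Rpl28*, *Rps28*, *Rpl35* and *Rps15* had log2 fold changes of 0.09, -0.02, -0.04, 0.03 and 0.07.

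Levels of cell type markers are given beside these values. The summed level of 9 leukocyte and Kupffer cell markers was 222 to 534 CPM in control and 342 to 446 CPM in senescent livers, and 0 of these markers were at 0 reads over the control livers. The 8 hepatocyte markers summed to 79741 to 93983 CPM in control and 87364 to 109054 CPM in senescent livers. *Alb*, the gene of serum albumin, held most of this sum (62753 ± 4608 CPM in control and 77470 ± 8378 CPM in senescent livers, SD, n = 4 each), while the median log2 fold change of the 8 was -0.07 and 0 of them passed by edgeR. Endothelial markers summed to 175 to 199.8 CPM in control and 191 to 239 CPM in senescent livers, cholangiocyte markers to 56.6 to 112 and 79.6 to 135 CPM, and stellate cell markers to 112 to 131 and 123 to 147 CPM, all with overlap. In iMEFs the 8 fibroblast markers summed to 19218 to 21046 CPM in control and 9030 to 11229 CPM in senescent libraries, with 6 lower and 1 higher by edgeR. The 4 markers of dividing cells summed to 1268 to 1417 CPM in control and 1312 to 1439 CPM in senescent iMEFs. In control and senescent livers they summed to 7.06 to 13.0 and 9.02 to 16.2 CPM. Of these 4 markers 0 passed by edgeR in iMEFs, where 39.8% of all genes did, and 0 in livers, where 0.343% did. The part of these levels in the values of the members was not tested.

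The change in senescence differed between the tissues for 8 members. Tissue cannot be told apart here from 4HT against AAV8-Tbg-Cre, from 7 days against 6 to 7 weeks, or from immortalized culture against whole liver. Control livers also received Cre, while control iMEFs had neither drug nor active Cre. In a fit over all 14 libraries 5 members had a change in livers above that in iMEFs and 3 below it, at an adjusted p of 0.05 by edgeR, where 9.69% and 7.41% of the 11693 genes tested did (17.1% in either direction). The shares of the members, 6.33% and 3.80%, were below those of all genes. The 5 were *Rpl23a* (difference 1.14, 95% confidence interval 0.63 to 1.65), *Rpl28* (0.60), *Rps15* (0.56), *Rpl35* (0.55) and *Rps28* (0.50), all of them lower in senescent iMEFs. The 3 were *Rps10* (-1.50), *Rpl35a* (-0.46) and *Rps6* (-0.41), all of them higher in senescent iMEFs. *Rpl35a*, a large-subunit protein, was at 245, 231 and 243 CPM in control and 295, 378 and 301 CPM in senescent iMEFs, and its log2 fold change in livers was -0.01. *Rps6*, the small-subunit protein phosphorylated by S6 kinase, was at 556, 616 and 613 CPM in control and 766, 860.3 and 680.4 CPM in senescent iMEFs, and had -0.03 in livers. For these members the senescent iMEF libraries were all above the controls. The 71 other members tested did not pass. Without senescent iMEF replicate 3 the counts were 3 above and 14 below, and without control iMEF replicate 2 they were 2 and 0. Leaving out control iMEF replicate 1, senescent iMEF replicate 1 or 2, any 1 of the control livers, or senescent liver replicate 2 or 3 also moved a count, to between 2 and 6 above and between 0 and 5 below. Shares of all genes in the fits that left out a library were not taken for this difference.

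**Figure D5:**
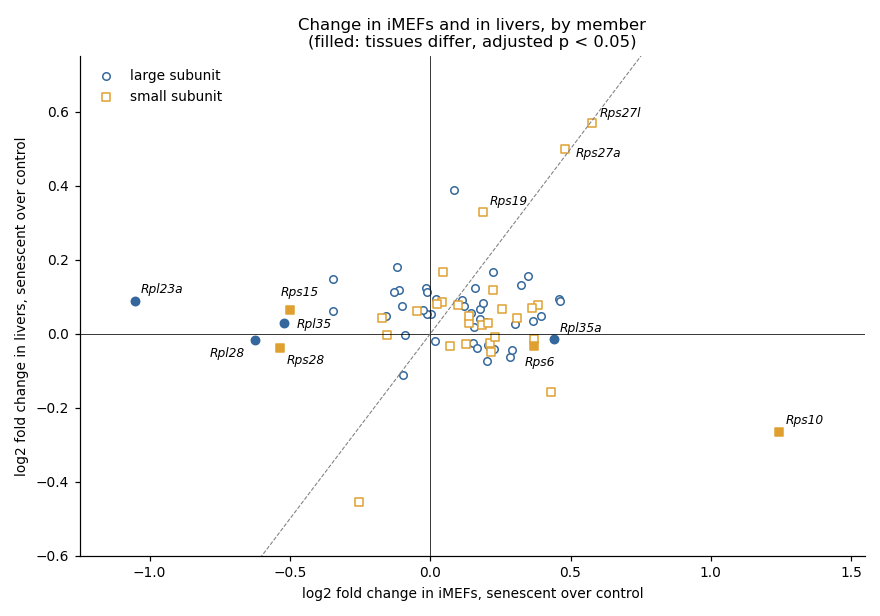
Log2 fold change in livers against that in iMEFs for 78 of the 79 tested members, senescent over control, circles for the large and squares for the small subunit. Filled points are the 8 members whose change differed between the tissues, and the dashed line marks equal change. The axes have different scales. Most members lie close to 0 on the liver axis, and *Rps27l* lies on the line at 0.58 and 0.57.

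Apart from *Rps27l*, the second copies and pseudogenes among the members were low in iMEFs. In livers *Rpl6l* was not, with 1682 reads over the controls against 696 for *Rpl13a*. *Rpl10l* had 0 reads in every library, which allows up to 3 reads over a group by counting error alone. *Rpl39l* had 2 reads, both in control liver replicate 1. *Rpl3l*, known from muscle, had 1 and 9 reads over control and senescent iMEFs and 11 and 6 over control and senescent livers. *Rpl32l* had 0 reads in iMEFs and 21 and 14 in livers. *Rps4l* was at 5.00 ± 0.742 and 4.19 ± 0.640 CPM in control and senescent iMEFs (SD, n = 3 each), and at 19.5 ± 4.52 and 14.2 ± 3.71 CPM in livers (SD, n = 4 each). *Rpl6l* was at 1.68 ± 0.223 and 2.07 ± 0.220 CPM in iMEFs and at 24.1 ± 3.99 and 23.4 ± 2.04 CPM in livers, on the same terms. *Rpl10* and *Rpl39*, the usual copies of *Rpl10l* and *Rpl39l*, were at 1108 and 381 CPM in control iMEFs.

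Reads of ribosomal protein pseudogenes bear on how members were counted. For each 100 reads of members, pseudogenes found by name or description held 0.370 to 0.409 reads in iMEFs and 4.38 to 4.68 in livers. The ranges of control and senescent libraries overlapped in both tissues. For *Rpl17* the pseudogenes by name held 11912 reads over the control livers and the gene 2274, while in control iMEFs they held 436 and the gene 34308. For *Rps10* the pseudogenes held 3377 reads and the gene 180 over the control livers. Levels of *Rpl17* and *Rps10* in livers are therefore uncertain, since near-identical sequences share reads and the handling of such reads is not given in the sources used here. *Rps27l* had 0 pseudogenes by name, so sharing of its reads was not examined. The 1 pseudogene of *Rps27* by name held 4 reads over the control livers. Of 51 pseudogenes by name tested in each tissue 6 were higher and 0 lower in iMEFs by edgeR, and 0 passed in livers. At an unadjusted p under 0.05 these were 8 and 0 in iMEFs and 1 and 0 in livers, while DESeq2 called 3 and 0 in iMEFs, limma-voom 6 and 0, and both called 0 in livers. Over all genes the shares by edgeR after adjustment were 18.6% and 21.2% in iMEFs and 0.308% and 0.035% in livers. Shares at the other settings were not taken.

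Lists of genes that work beside the ribosomal proteins were read against the shares of all genes at an adjusted p of 0.05 by edgeR. These were 18.6% higher and 21.2% lower in iMEFs and 0.308% and 0.035% in livers. Shares at an unadjusted p or by the other tools were not taken. Of 18 helpers of ribosome assembly and import, 10 were higher and 0 lower in senescent iMEFs by edgeR (median log2 fold change 0.35), and 0 passed in livers (median -0.03). At an unadjusted p under 0.05 these counts were 13 and 0 in iMEFs and 0 in livers, and DESeq2 and limma-voom each called 11 and 0 in iMEFs and 0 in livers. *Tsr1*, a maturation factor of the small subunit, had a log2 fold change of 0.57 in iMEFs, and *Nmd3*, the export adaptor of the large subunit, had 0.45. *Bysl*, *Heatr3* and *Tsr1* also passed in the test of the difference between the tissues. Of 18 translation factors and other genes with terminal pyrimidine tracts, 4 were higher and 1 lower in iMEFs (median 0.09), the higher ones near the share of all genes, and 0 passed in livers by edgeR, adjusted or not, DESeq2 or limma-voom. *Pabpc1*, the poly(A)-binding protein, had a log2 fold change of 0.56 and *Eef2*, an elongation factor, of 0.28, whereas *Eif3h*, an initiation factor subunit, fell by 0.26 on the log2 scale.

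Host genes of small nucleolar RNAs, which lack a protein product and begin with similar tracts, had the largest median of these lists. Of 9 tested, 8 were higher and 0 lower in senescent iMEFs by edgeR, where 18.6% and 21.2% of all genes were (9 and 0 at an unadjusted p under 0.05, and 7 and 0 by DESeq2 and by limma-voom), with a median log2 fold change of 0.89. *Snhg6*, *Snhg1*, *Gas5* and *Snhg15* had log2 fold changes of 1.37, 1.04, 0.89 and 1.66. In livers *Snhg15* alone passed (log2 fold change 1.57, adjusted p = 0.00718 by edgeR), and the median was 0.02. Of 77 mitochondrial ribosomal proteins 9 were higher, 10 lower and 58 not passed in iMEFs (median -0.07), both shares below those of all genes, and 0 of 77 passed in livers by edgeR, DESeq2 or limma-voom (2 higher and 1 lower at an unadjusted p under 0.05 by edgeR).

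Cytosolic ribosome genes whose symbols the rule misses behaved in different ways. *Rack1*, a scaffold on the small subunit, *Rps3a1* and *Fau* had log2 fold changes of 0.17, 0.06 and 0.23 in iMEFs and did not pass. *Rpl22l1*, a relative of *Rpl22*, fell by 0.66 on the log2 scale in iMEFs (adjusted p = 0.00500 by edgeR), had 0.29 in livers, and passed in the test of the difference. *Rpl36al* and *Rpl7l1* had 0.46 (standard error 0.42) and 0.12 in iMEFs and did not pass. In livers 0 of these 6 genes passed by edgeR, DESeq2 or limma-voom, and *Rpl22l1* alone was higher at an unadjusted p under 0.05 by edgeR.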

How the data were processed

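RNA from iMEFs (3 control, 3 senescent) and whole livers (4 and 4) was sequenced at Novogene. The authors deposited raw counts of reads per gene for 54532 genes, aligned to mm10 with STAR and counted with featureCounts per the submitters' processing notes, without versions. For strand, multimapping and annotation release, the settings were not stated in the methods or notes. Normalized tables and the authors' comparisons were not used. Tables were joined by Ensembl ID. Replicates are called biological in the methods.

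Each tissue was fitted with edgeR 4.0.16 (R 4.3.3; filterByExpr, TMM, quasi-likelihood test, Benjamini-Hochberg over all tested genes, threshold 0.05), and the difference between tissues over 14 libraries. Principal transcripts of GENCODE M21 (GRCm38) gave length and GC content, since the tables hold no length. Alternatives used DESeq2 1.42.0, limma-voom 3.58.1, RLE factors, library size only, factors without members, no filter, the replicate block, a threshold of 0.01, offsets for length or GC (the latter chosen after seeing the data) and leaving out each library. The fits were tested on simulated data.

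Named members were those with a set role, the 4 largest rises and falls past the threshold, those over 3 scaled median absolute deviations from their subunit's median, and the 4 with the smallest p for the difference. Members and lists were chosen with earlier results of these data known. Promoter windows came from RefSeq (GRCm38.p6). P-values measure the spread between these samples, and counting floors cover counting error only. Results for some genes were left out of the text and the plots, and are not reported here.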

Additional observations from a re-analysis of the deposited data

Results flagged for a closer look

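In senescent livers *Rpl23a* was at 63.6, 80.6, 64.0 and 65.2 CPM, and senescent replicate 2, at 80.6 CPM, stood apart from the other 3 by Dixon's criterion. *Rpl39l* and *Rpl3l* reached 0.112 and 0.558 CPM in control liver replicate 1, from 2 and 10 reads, against at most 1 read in each other control liver. The small subunit took 0.599% of the reads in control liver replicate 1, against 0.580% to 0.581% in the other 3. The criterion was applied to 60 groups, and chance flags about 1 in 20 groups by it. That rate need not hold where most counts of a group are at or near 0, as for *Rpl39l* and *Rpl3l*.

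The change in senescence differed between the tissues for 8 of 79 tested members, by the interaction term of edgeR's fit over all libraries. These were 5 above and 3 below (6.33% and 3.80%), against 9.69% and 7.41% of all genes tested. The log2 fold change in livers minus that in iMEFs was 1.14 for *Rpl23a*, 0.60 for *Rpl28*, 0.56 for *Rps15*, 0.55 for *Rpl35*, 0.50 for *Rps28*, -0.46 for *Rpl35a*, -0.41 for *Rps6* and -1.50 for *Rps10*.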

How the results depend on the processing

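On leaving out 1 library, members lower in iMEFs were 5 to 7, the iMEF median was 0.09 to 0.24 and members lower in livers were 0. Members higher in iMEFs, 18 in the fit as reported, were 34 with the length offset, 33 with the length and GC offsets, 8 at an adjusted p of 0.01 and 7 to 46 on leaving out 1 library. Members higher in livers, 1 as reported, were 0 at an adjusted p of 0.01, 0 with the replicate block and 0 to 1 on leaving out 1 library. The liver median was 0.0067 with the length offset, 0.0067 with both offsets and 0.027 to 0.073 on leaving out 1 library. Members with a liver change above the iMEF change, 5 as reported, were 1 at an adjusted p of 0.01 and 2 to 6 on leaving out 1 library. Those below, 3 as reported, were 5 with library size only, 6 with limma-voom, 6 with DESeq2, 1 with the replicate block, 0 at 0.01 and 0 to 14 on leaving out 1 library. Among these alternatives, shares of all genes were taken only in iMEFs, for the length offset and without senescent replicate 3. The other counts have none to be read against. The cause was not tested.

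Signs near 0 turned for members that did not pass. In iMEFs *Rplp1* had 0.0018 with RLE factors, 0.035 with library size only, 0.019 with the length offset, 0.11 with the GC offset and 0.098 with both. *Rpl23* had -0.026 with the GC offset, and *Rpl36a* -0.017 with it and -0.029 with both. In livers the length offset and both offsets gave -0.015 and -0.027 for *Rpl35*, -0.012 and -0.019 for *Rplp2* and -0.011 and -0.028 for *Rps15*. On leaving out 1 library the ranges were -0.087 to 0.10 for *Rpl23*, -0.052 to 0.092 for *Rpl36a* and -0.096 to 0.098 for *Rplp1* in iMEFs. In livers they were -0.067 to 0.046 for *Rpl23*, -0.039 to 0.012 for *Rpl28*, -0.00287 to 0.055 for *Rpl35*, -0.086 to 0.039 for *Rps28* and -0.029 to 0.015 for *Rps4x*.

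The replicate numbers showed no clear pairing of the samples, but so few libraries cannot exclude one. Deviations of same-numbered libraries correlated at -0.005, -0.050 and -0.171 in iMEFs and at -0.002, -0.083, -0.035 and 0.237 in livers. With the replicate block 17 members were higher and 7 lower in iMEFs. DESeq2 called 24 higher and 7 lower in iMEFs. Shares of all genes with the replicate block or by DESeq2 were not taken. Members with few reads, such as *Rps10* and *Rpl24*, are limited by depth.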
